A study of Mus musculus with 8 samples.

Results

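The genes described here encode the SNARE fusion machinery of mouse pancreatic islets: the vesicle proteins Vamp2, Vamp3 and Vamp8, the syntaxins Stx1a, Stx3 and Stx4a, their membrane partner Snap25, and the recycling factors Nsf and Napa. They were found by symbol among the 35596 genes of the deposited table, and all 9 had a single row. Islets are clusters of endocrine cells within the pancreas, taken here from male mice of the inbred strain C57BL/6J. Weight-cycled mice (4 libraries) ate a diet with 60% fat over 9 weeks, then 10% fat over 9 weeks, then 60% fat again over the last 9 weeks. Obese mice (4 libraries) began with 10% fat over 9 weeks and ended with 18 weeks at 60% fat. Both groups thus had 18 weeks at 60% fat, and what was compared is that time in separate spells with a leaner spell between them against the same time unbroken. The length of the final spell at 60% fat also differed between the groups, at 9 weeks against 18 weeks, and this cannot be told apart from the order of the diets. Levels are TPM, a gene's share of its library after division by transcript length. The depth of sequencing is unknown from such values, and counting error cannot be given. Nothing in the labels ties a library to its own animal, and the p-values below reflect scatter between libraries that may be technical.

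A SNARE protein on a vesicle zips together with SNARE proteins on the target membrane, and this draws the membranes into fusion. In beta cells, Vamp2 on the insulin granule pairs with Snap25 and a syntaxin at the plasma membrane when calcium enters the cell. After fusion, the ATPase Nsf, held to the bundle by its adaptor alpha-SNAP (the product of Napa), pulls the spent complex apart so that its parts can be used again.

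Transcripts of the vesicle SNARE Vamp2 were lower in weight-cycled islets by 0.64 on the log2 scale, and those of Nsf, Napa and Stx4a by 0.39 to 0.49. Vamp8, the most abundant of the vesicle SNAREs, was at 68.9 ± 9.74 TPM in weight-cycled and 65.5 ± 3.14 TPM in obese islets (SD, n = 4 each) and did not pass the test. Genes with a mean of at least 1 TPM over the 8 libraries were tested with limma on log2(TPM + 1), with Benjamini-Hochberg adjustment over all 8127 genes tested and a threshold of 0.05. Of the 9 SNARE genes, 8 passed that filter, and 4 of these 8 were lower, 0 higher and 4 did not pass. At an unadjusted p under 0.05, limma gave 5 lower and 0 higher. Among all genes tested, 23.9% were lower and 1.21% higher at the adjusted threshold, and the share at an unadjusted p is not given. The median log2 fold change was -0.36 over the 8 genes and -0.26 over all genes tested.

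How firmly these calls stand depended on the scaling of the libraries. After median-of-ratios scaling, which moves the median of all genes to -0.01, limma called 0 of the 8 genes (3 at an unadjusted p under 0.05). Those 3 were Vamp2 and Nsf, which were lower, and Vamp8, which was higher. At the adjusted threshold, 0.566% of all genes were lower and 1.24% higher in that fit. Quantile scaling also left 0 called by limma (3 at an unadjusted p under 0.05), against 1.51% of all genes lower and 2.13% higher. So did taking out the trend with transcript length in each library (3 at an unadjusted p under 0.05), against 1.53% lower and 1.78% higher. With quantile scaling the 3 were Vamp2, Nsf and Napa, and with the length trend removed Vamp2, Nsf and Stx4a, all of them lower. These shares of all genes are at the adjusted threshold. The counts at an unadjusted p have no share of all genes beside them and cannot be read against these.

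**Figure D1:**
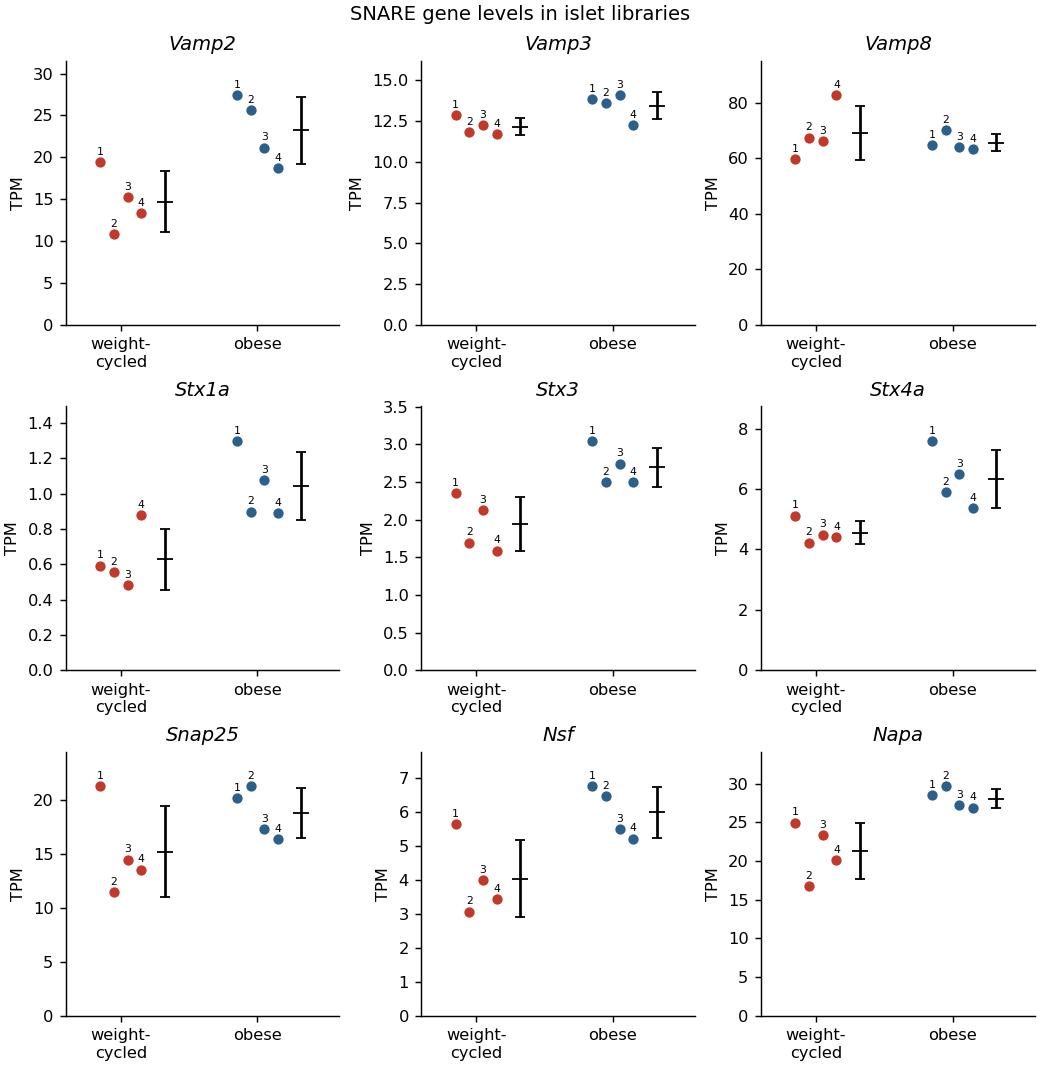
TPM of the 9 SNARE genes in each library (vertical axes from 0), with weight-cycled libraries in red and obese libraries in blue, numbered by replicate, and the mean ± SD of each group as a black bar. The weight-cycled libraries of Stx1a, Stx3, Stx4a and Napa lie below all obese libraries, while Vamp8 overlaps between groups.

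Of the vesicle SNAREs, Vamp2 carries the granule side of calcium-triggered insulin release. Its TPM was 19.4, 10.9, 15.2 and 13.3 in weight-cycled replicates 1 to 4, against 27.4, 25.6, 21.2 and 18.7 in obese replicates 1 to 4. The groups met at a single point, since weight-cycled replicate 1 lay above obese replicate 4. The means were 14.7 ± 3.63 TPM in weight-cycled and 23.2 ± 4.0 TPM in obese islets (SD, n = 4 each). The log2 fold change of -0.64 (SE 0.165) passed the test (limma adjusted p = 0.0345). That fold change was lower than those of all but 3.05% of the genes tested. With median-of-ratios scaling Vamp2 stood at -0.32, with 5.75% of genes below it (limma adjusted p = 0.0928), with quantile scaling at -0.43, with 2.52% below, and with the length trend removed at -0.41, with 2.65% below.

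Vamp3, or cellubrevin, is a close relative of Vamp2 found in most cell types, where it serves recycling endosomes as well as secretion. It was at 12.9, 11.9, 12.2 and 11.7 TPM in weight-cycled replicates 1 to 4, against 13.9, 13.6, 14.1 and 12.2 TPM in obese replicates 1 to 4. The weight-cycled values sat at the low end of the obese ones and overlapped them, and the log2 fold change of -0.13 (SE 0.0872) did not pass (limma adjusted p = 0.227). Its direction turned under other scalings, to 0.17 with median-of-ratios scaling, 0.09 with quantile scaling and 0.14 with the length trend removed.

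Vamp8, or endobrevin, is the granule SNARE of pancreatic acinar cells and also acts on a subset of beta-cell granules. Its TPM was 59.5, 67.4, 66.2 and 82.6 in weight-cycled replicates 1 to 4, against 64.8, 70.1, 64.0 and 63.2 in obese replicates 1 to 4. Weight-cycled replicate 4 was the highest of all 8 libraries and weight-cycled replicate 1 the lowest. With TPM as deposited the log2 fold change was 0.06 (SE 0.104, limma adjusted p = 0.633), with a 95% interval of -0.16 to 0.29. A fall of the size seen for Vamp2 lay outside this interval, which is given for that scaling only. Without weight-cycled replicate 4 the fold change was -0.03, and with median-of-ratios scaling 0.39 (SE 0.154, limma adjusted p = 0.131).

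Within the summed TPM of these 3 vesicle genes, Vamp2 made up 15.5% ± 4.26 in weight-cycled and 22.6% ± 2.60 in obese islets (SD, n = 4 each). Vamp8 made up 71.8% ± 5.28 in weight-cycled and 64.2% ± 2.47 in obese islets, and Vamp3 made up 12.8% ± 1.34 in weight-cycled and 13.2% ± 0.729 in obese islets.

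Among the syntaxins, Stx1a is the partner of Snap25 in calcium-triggered fusion, and it was the scarcest of the 9 genes. Its TPM was 0.592, 0.556, 0.484 and 0.876 in weight-cycled replicates 1 to 4, against 1.30, 0.897, 1.08 and 0.890 in obese replicates 1 to 4. Weight-cycled replicate 4 came within a small step of obese replicate 4, and the groups did not overlap. With a mean of 0.834 TPM over all libraries it did not enter the main test. In the fit without a filter on low values its log2 fold change was -0.33 (SE 0.106) and did not pass (limma adjusted p = 0.111). That fit called 0 of 19482 genes, with 5686 at an unadjusted p under 0.05.

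Stx4a, the mouse gene for syntaxin 4, serves fusion at the plasma membrane in beta cells and in insulin-responsive fat and muscle. It was at 5.12, 4.23, 4.49 and 4.40 TPM in weight-cycled replicates 1 to 4, against 7.60, 5.89, 6.49 and 5.37 TPM in obese replicates 1 to 4. All weight-cycled libraries were below all obese ones. The log2 fold change was -0.39 (SE 0.114, limma adjusted p = 0.0382). It was -0.11 with median-of-ratios scaling (limma adjusted p = 0.348), -0.14 with quantile scaling (limma adjusted p = 0.29) and -0.21 with the length trend removed (limma adjusted p = 0.126).

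Stx3 has been tied to the fusion of granules that arrive late at the beta-cell membrane. Its TPM was 2.35, 1.69, 2.13 and 1.59 in weight-cycled replicates 1 to 4, against 3.05, 2.50, 2.75 and 2.50 in obese replicates 1 to 4. The groups did not overlap either, yet the log2 fold change of -0.34 (SE 0.117) lay just outside the threshold (limma adjusted p = 0.0518). It was -0.11 with median-of-ratios scaling, -0.06 with quantile scaling and -0.10 with the length trend removed, and did not pass in these fits (limma adjusted p of 0.346, 0.62 and 0.394). Among all genes tested, 21.1% had every weight-cycled library below every obese one and 1.3% every one above, and the first held for 3 of the 8 tested SNARE genes, namely Stx3, Stx4a and Napa.

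Snap25 supplies helices to the fusion bundle from the plasma membrane side and is a standard marker of neuroendocrine cells. Its TPM was 21.3, 11.5, 14.5 and 13.5 in weight-cycled replicates 1 to 4, against 20.2, 21.3, 17.3 and 16.4 in obese replicates 1 to 4. Weight-cycled replicate 1 was at the level of the highest obese library, while the other 3 weight-cycled libraries were below every obese one. The log2 fold change of -0.32 (SE 0.16, 95% interval -0.67 to 0.03) did not pass (limma adjusted p = 0.130). Without weight-cycled replicate 1 it was -0.48 and passed (limma adjusted p = 0.00421), in a fit that called 54.4% of all genes lower and 3.35% higher. With all libraries it was -0.0047 with median-of-ratios scaling (limma adjusted p = 0.979), -0.11 with quantile scaling (limma adjusted p = 0.596) and -0.10 with the length trend removed (limma adjusted p = 0.574).

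The recycling pair moved in the same direction. Nsf was at 5.63, 3.06, 3.99 and 3.43 TPM in weight-cycled replicates 1 to 4, against 6.75, 6.47, 5.49 and 5.21 TPM in obese replicates 1 to 4. Here again weight-cycled replicate 1 lay among the obese libraries and the other 3 below them. The log2 fold change was -0.49 (SE 0.151, limma adjusted p = 0.0417). Napa was at 25.0, 16.7, 23.4 and 20.1 TPM in weight-cycled replicates 1 to 4, against 28.5, 29.7, 27.3 and 26.9 TPM in obese replicates 1 to 4. Its groups did not overlap, and the log2 fold change was -0.40 (SE 0.118, limma adjusted p = 0.0399). With median-of-ratios scaling the fold changes were -0.22 for Nsf and -0.08 for Napa, and neither passed (limma adjusted p = 0.137 and 0.524).

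**Figure D2:**
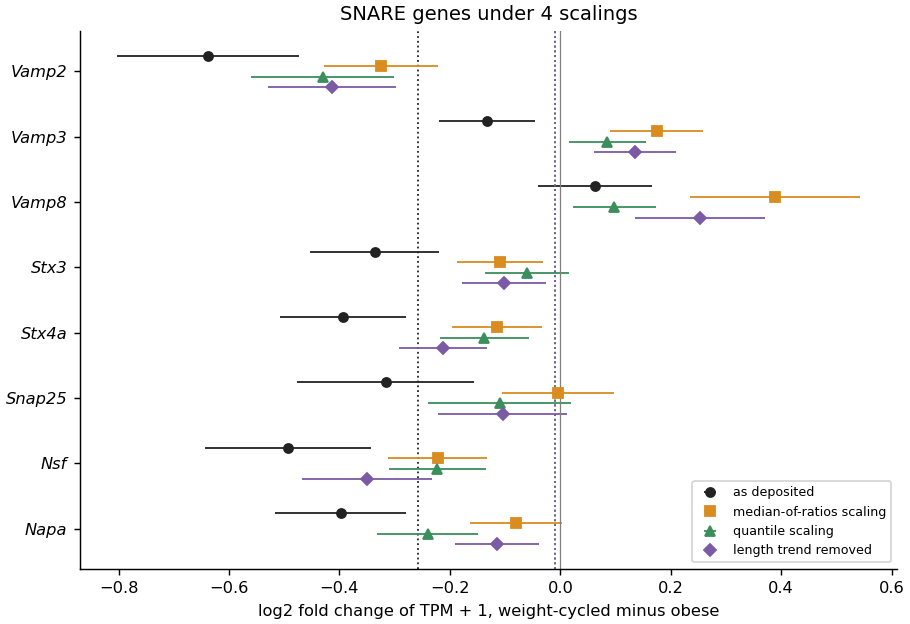
Log2 fold change (weight-cycled minus obese) of the 8 tested SNARE genes with TPM as deposited and under 3 other scalings, with bars for the SE and dotted lines for the median of all genes under each scaling in its colour. Vamp2 lies furthest to the left of the dotted line with TPM as deposited, at -0.64, and Vamp3 and Vamp8 lie to the right of it.

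Promoter sequence was available from RefSeq (build GRCm38.p6) for 6 of the 9 genes, as windows from 250 bases before to 50 after the gene start that RefSeq gives. Those of Napa, Nsf and Stx4a, the called genes with a window, are shown with that of Vamp8, which was not called. Capitals mark the E-box CACGTG, the cyclic AMP response element TGACGTCA and the GC box GGGCGG, searched on both strands. The windows are chr7:16098330-16098629 on the plus strand for Napa, chr11:103954007-103954306 on the minus strand for Nsf, chr7:127841558-127841857 on the plus strand for Stx4a and chr6:72390618-72390917 on the minus strand for Vamp8. The GENCODE M21 gene start lies in each of these windows except for Stx4a, whose span begins further upstream at 127824294, while its first protein-coding transcript begins at 127841764, within the window.
Napa: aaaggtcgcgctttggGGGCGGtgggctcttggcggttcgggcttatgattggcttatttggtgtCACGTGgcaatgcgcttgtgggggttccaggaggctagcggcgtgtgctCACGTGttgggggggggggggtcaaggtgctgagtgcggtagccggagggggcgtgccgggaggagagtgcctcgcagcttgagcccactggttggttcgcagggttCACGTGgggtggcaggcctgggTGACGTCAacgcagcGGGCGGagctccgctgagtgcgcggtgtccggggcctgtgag
Nsf: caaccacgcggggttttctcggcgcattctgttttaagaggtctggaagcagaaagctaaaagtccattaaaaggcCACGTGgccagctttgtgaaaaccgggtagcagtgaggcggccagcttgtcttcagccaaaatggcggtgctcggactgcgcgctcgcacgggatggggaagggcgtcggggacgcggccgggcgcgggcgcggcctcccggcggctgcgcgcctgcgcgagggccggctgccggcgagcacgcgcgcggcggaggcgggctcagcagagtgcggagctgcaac
Stx4a: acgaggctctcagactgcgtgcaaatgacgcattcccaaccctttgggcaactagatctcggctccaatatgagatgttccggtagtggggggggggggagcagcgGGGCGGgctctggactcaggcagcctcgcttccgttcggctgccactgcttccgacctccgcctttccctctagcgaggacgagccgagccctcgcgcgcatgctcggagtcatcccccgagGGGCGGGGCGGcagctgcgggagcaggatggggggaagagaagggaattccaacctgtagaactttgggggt
Vamp8: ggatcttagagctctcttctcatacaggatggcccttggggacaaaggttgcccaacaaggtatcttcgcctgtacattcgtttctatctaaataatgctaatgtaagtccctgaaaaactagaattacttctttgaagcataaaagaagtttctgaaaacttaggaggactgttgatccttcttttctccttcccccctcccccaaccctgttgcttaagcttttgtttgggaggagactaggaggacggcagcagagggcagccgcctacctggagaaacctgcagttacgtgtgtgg
The Napa window held 3 E-boxes, 1 cyclic AMP response element and 2 GC boxes, and the Nsf window 1 E-box and neither of the other motifs. The Stx4a window held 3 GC boxes, a pair of which overlap, and the Vamp8 window none of the 3 motifs. Of all 32851 promoter windows in the same table, 7.15% held an E-box, 1.79% the cyclic AMP response element and 35.7% a GC box. The windows of Napa, Nsf and Stx4a had 67.0%, 67.7% and 64.3% G and C bases, and that of Vamp8 46.7%. Windows of Stx1a and Stx3 are not printed. That of Stx3, whose weight-cycled libraries lay below all obese ones, held none of the 3 motifs and had 44.0% G and C bases. That of Stx1a held 3 GC boxes, neither of the other motifs, and 66.3% G and C bases. A link between window content and fold change was not tested. Windows of Snap25, Vamp2 and Vamp3 were not used here. A match to these letters is a description of the window and does not show that a factor binds.

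A factor applied to a whole library leaves the ratio of 2 of its genes as it was, so 7 ratios set by role were compared as log2 of TPM over TPM. There were 4 libraries in each group and 70 ways to assign them, so the smallest two-sided p an exact permutation test can give is 0.0286. The ratio of Vamp2 to Snap25, the granule side over the plasma membrane side, was 0.914, 0.946, 1.05 and 0.982 in weight-cycled replicates 1 to 4. In obese replicates 1 to 4 it was 1.36, 1.20, 1.22 and 1.14. The groups did not overlap, and weight-cycled replicate 1, which had the highest Vamp2 and Snap25 of its group, had the lowest ratio of all 8 libraries. Of all 36 pairs of the 9 genes, 6 had ratios that did not overlap between the groups. The share of such pairs among all genes tested was not computed, so this count cannot be called high or low. Snap25 over Nsf, with a log2 difference of 0.26, was also among them. On the log2 scale the ratio was -0.04 ± 0.0862 in weight-cycled and 0.30 ± 0.105 in obese islets (SD, n = 4 each), a difference of -0.34. This gave the smallest p the test can reach (exact permutation p = 0.0286) and 0.133 after adjustment over the 7 ratios. Leaving out each library in turn gave differences of -0.38 to -0.29.

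The paralog ratios among vesicle SNAREs have Vamp2 as the denominator, and their means were higher in weight-cycled islets. Vamp8 over Vamp2 was 3.06, 6.20, 4.35 and 6.21 in weight-cycled replicates 1 to 4, against 2.37, 2.74, 3.02 and 3.38 in obese replicates 1 to 4. Only weight-cycled replicate 1 fell within the obese range, and the log2 difference was 0.74 (exact permutation p = 0.0571, adjusted 0.133). Vamp3 over Vamp2 was 0.662, 1.09, 0.805 and 0.879 in weight-cycled replicates 1 to 4, against 0.506, 0.532, 0.665 and 0.655 in obese replicates 1 to 4, a log2 difference of 0.53 (exact permutation p = 0.0571, adjusted 0.133). These ratios share the Vamp2 values and are not independent of each other.

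The other 4 ratios gave larger p-values. Napa over Nsf, the adaptor over the ATPase it recruits, was 2.43 ± 0.190 on the log2 scale in weight-cycled and 2.24 ± 0.129 in obese islets (SD, n = 4 each; exact permutation p = 0.143). Stx4a over Stx1a was 2.90 ± 0.396 in weight-cycled and 2.61 ± 0.0714 in obese islets (exact permutation p = 0.229). Stx3 over Stx1a was 1.65 ± 0.573 in weight-cycled and 1.39 ± 0.122 in obese islets (exact permutation p = 0.343). Stx1a over Snap25 was -4.60 ± 0.545 in weight-cycled and -4.18 ± 0.277 in obese islets (exact permutation p = 0.257). Weight-cycled replicate 4, with the highest Stx1a of its group, had the lowest Stx3 and Stx4a ratios to Stx1a of all 8 libraries.

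**Figure D3:**
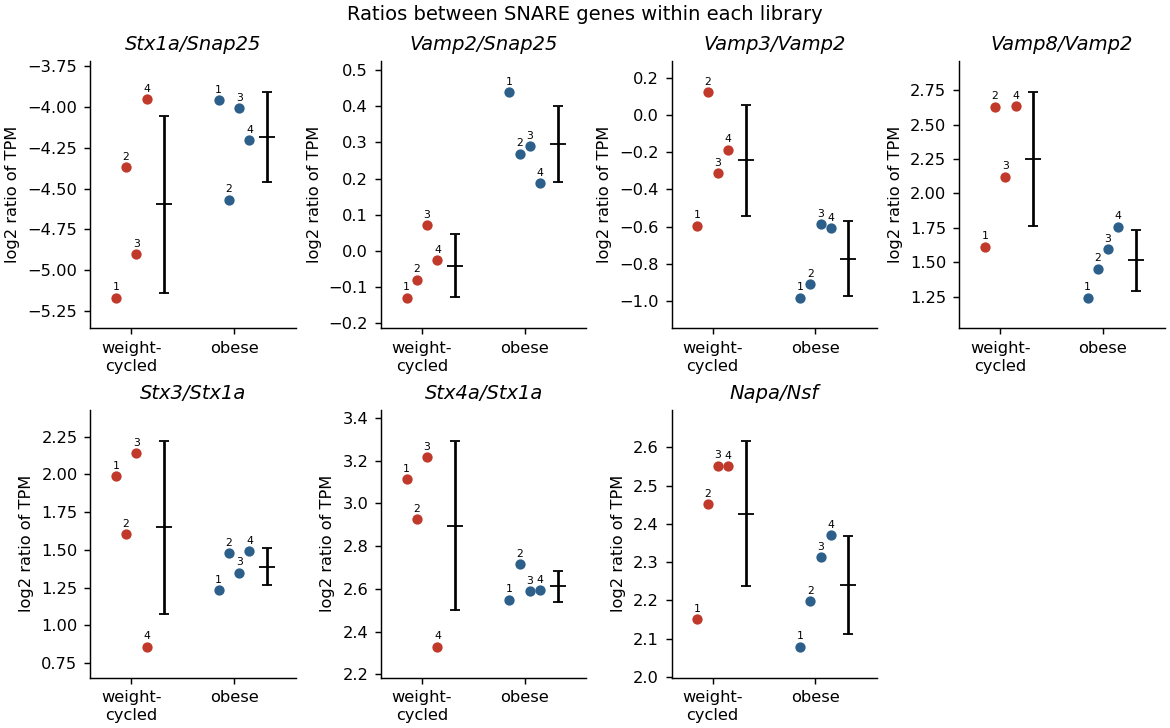
Log2 ratio of the TPM of paired SNARE genes in each weight-cycled (red) and obese (blue) library, numbered by replicate, with the mean ± SD of each group as a black bar and axes that do not start at 0. In the Vamp2/Snap25 panel the 4 weight-cycled libraries sit between -0.13 and 0.07 and the 4 obese libraries between 0.19 and 0.44.

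By mean TPM over the 8 libraries the order was Vamp8 (67.2), Napa (24.7), Vamp2 (19.0), Snap25 (17.0), Vamp3 (12.8), Stx4a (5.45), Nsf (5.002), Stx3 (2.32) and Stx1a (0.834). Within a library, each gene in this order was above the next in 8 of 8 libraries, except Vamp2 over Snap25 (5 of 8), Snap25 over Vamp3 (7 of 8) and Stx4a over Nsf (6 of 8). For these 3 pairs, and for Napa and Vamp2, the ranges over all libraries overlapped. In 7 of the 9 genes weight-cycled replicate 1 was the highest library of its group, the exceptions being Stx1a and Vamp8. On the first principal component of all genes tested, which held 66.8% of the variance, that library scored -7.98, among the obese libraries at -23.3 to -5.03, while the other weight-cycled libraries scored 13.8 to 30.6. Without it, limma called 6 of the 8 genes lower, all but Vamp3 and Vamp8, in a fit that called 54.4% of all genes lower and 3.35% higher. With median-of-ratios scaling and without that library, a combination chosen after the data were seen, Vamp2 and Nsf were lower and Vamp3 and Vamp8 higher, in a fit that called 17.9% of all genes lower and 20.0% higher.

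Reads of near-identical sequences can be split between genes by Salmon, so the GENCODE M21 transcripts (build GRCm38, also called mm10) were searched for shared runs. Between Vamp2, Vamp3 and Vamp8, and between the 3 syntaxins, the longest shared run was 23 bases, between Stx3 and Stx4a. Vamp2, Stx1a and Napa shared no run of 31 bases with any other gene, and Snap25, Stx3, Vamp8 and Nsf shared at most 1.94% of theirs. Vamp3 (ENSMUSG00000028955.3, chromosome 4, minus strand, 151047300 to 151057963) shared 9.03% of its 31-base runs with other genes. Stx4a (ENSMUSG00000030805.14, chromosome 7, plus strand, 127824294 to 127849019) shared 4.39%. On the same build Vamp2 (ENSMUSG00000020894.16) lies on the plus strand of chromosome 11, 69088490 to 69092384, and Nsf (ENSMUSG00000034187.18) on the minus strand of the same chromosome, 103821782 to 103954056. Napa (ENSMUSG00000006024.13) lies on the plus strand of chromosome 7, 16098458 to 16117975, and Snap25 (ENSMUSG00000027273.13) on the plus strand of chromosome 2, 136713453 to 136782428. Stx1a (ENSMUSG00000007207.10) lies on the plus strand of chromosome 5, 135023482 to 135051100, Stx3 (ENSMUSG00000041488.16) on the minus strand of chromosome 19, 11775118 to 11819403, and Vamp8 (ENSMUSG00000050732.9) on the minus strand of chromosome 6, 72385223 to 72390703.

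Around these genes, 57 other SNARE and SNARE-regulator genes were in the table, of which 39 were tested. Of these 39, limma called 10 lower and 0 higher (19 lower and 1 higher at an unadjusted p under 0.05), and 29 did not pass, with a median log2 fold change of -0.29. As a share this is 10 of 39 against the 23.9% of all genes tested that were lower. With median-of-ratios scaling limma called 0 of the 39 (13 at an unadjusted p under 0.05), with quantile scaling 0 lower and 1 higher, and with the length trend removed 1 lower and 0 higher. The directions of those 13 are not reported here. Counts at an unadjusted p have no share of all genes beside them and cannot be read as an excess.

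Of the 8 tested priming, clamping and disassembly regulators, 3 were lower, and all 8 had a fold change below 0, as did 6950 of the 8127 genes tested. Cplx2, the complexin that clamps and primes SNARE bundles, was at 28.8, 13.7, 15.2 and 11.4 TPM in weight-cycled replicates 1 to 4, against 31.3, 30.9, 26.5 and 22.1 TPM in obese replicates 1 to 4, with replicate 1 alone in the obese range. Its log2 fold change was -0.72 (SE 0.226, limma adjusted p = 0.0435). Cadps, which primes dense-core granules for release, was at 5.79, 2.46, 3.25 and 4.78 TPM in weight-cycled and 7.33, 8.29, 6.88 and 6.01 TPM in obese replicates 1 to 4, with no overlap. Its log2 fold change was -0.72 (SE 0.188, limma adjusted p = 0.0345). Baiap3, a Munc13-related gene of dense-core vesicle traffic, was lower, at -0.75 (SE 0.179, limma adjusted p = 0.0324). Txlna, which encodes a syntaxin-binding protein, was at -0.42 and did not pass (limma adjusted p = 0.0509).

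Of the 7 tested Sec1/Munc18 genes, whose products hold syntaxins and guide their assembly, 3 were lower. Stxbp3, or Munc18c, the partner of syntaxin 4, was at 2.06, 1.82, 1.83 and 2.86 TPM in weight-cycled and 4.49, 3.71, 3.66 and 3.42 TPM in obese replicates 1 to 4. Its groups did not overlap, its log2 fold change was -0.63 (SE 0.128, limma adjusted p = 0.0302), and it was the gene still called with the length trend removed, at -0.47 (limma adjusted p = 0.0458). Vps33a, of lysosomal tethering, was lower, at -0.42 (SE 0.13), while Scfd1 and Vps45, of Golgi and endosomal traffic, were at -0.18 and 0.22 and did not pass.

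Of the 19 tested Golgi, endoplasmic reticulum and endosomal SNAREs, 4 were lower, namely Stx7 of late endosomes at -0.52 (SE 0.129), Stx16 of the trans-Golgi at -0.44 (SE 0.118), Stx17 of autophagosomes at -0.41 (SE 0.136) and Gosr2 of the Golgi at -0.35 (SE 0.118). The most abundant of them, Use1 and Sec22b of the Golgi to endoplasmic reticulum route and Vti1b of endosomes, were at -0.03, 0.09 and -0.04 and did not pass. Bet1, an endoplasmic reticulum to Golgi SNARE named after its values were seen, was at 0.35 and did not pass (limma adjusted p = 0.0542), and passed with quantile scaling at 0.53 (limma adjusted p = 0.0469). Its groups did not overlap, with the weight-cycled libraries at 20.3 to 30.1 TPM and the obese libraries at 17.1 to 19.9 TPM. Of the 5 other plasma membrane SNAREs tested, 0 passed (0 also at an unadjusted p under 0.05), with Snap47 at -0.19, Snap23, the broadly expressed relative of Snap25, at -0.13 and Vamp5 at -0.03.

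**Figure D4:**
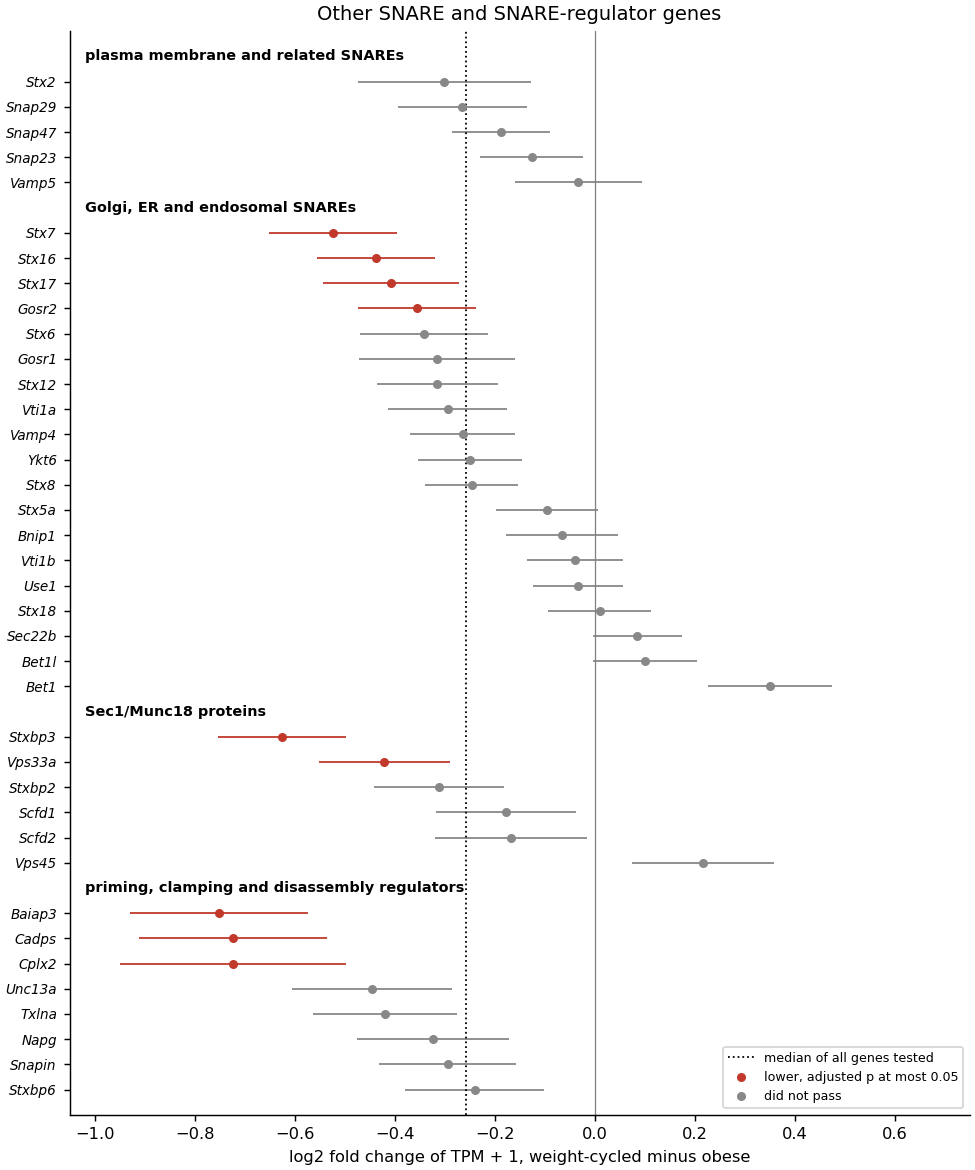
Log2 fold change (weight-cycled minus obese) with SE bars of 38 tested genes around the SNARE machinery, by role, with genes past the threshold in red and the median of all genes tested as a dotted line. The 9 red points reach from -0.75 for Baiap3 to -0.35 for Gosr2, and Bet1 lies furthest to the right at 0.35.

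Genes with the most similar course over the 8 libraries were sought by the root-mean-square distance between centred log2(TPM + 1) values. For Vamp2 the 3 nearest were Pfkfb2, Fubp1 and Mfn2, at 0.0336, 0.0531 and 0.0564, where the median gene lay at 0.268. Among the SNARE genes the nearest to Vamp2 was Nsf, at 0.101, and the furthest Vamp8, at 0.469. For Snap25 the 3 nearest were Rbm5, Supt5 and Rhoq, at 0.0179, 0.0410 and 0.0428, where the median gene lay at 0.197, and the nearest SNARE gene was again Nsf, at 0.102.

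SNAREs are used by many cells, so marker genes of the cell types an islet preparation can hold were read as well. In bulk RNA fewer cells of a type cannot be told apart from less RNA per cell. Insulin transcripts took 77.6% ± 1.51 of TPM in weight-cycled and 77.4% ± 0.671 in obese islets (SD, n = 4 each). Of 8 beta-cell markers 5 were lower and 0 higher. For these and the marker counts below, the share over all genes tested was 23.9% lower and 1.21% higher. After median-of-ratios scaling 0.566% of all genes were lower, and the marker calls under that scaling are not reported here. The 5 alpha-cell markers summed to 3015 to 8467 TPM in weight-cycled and 4527 to 12271 TPM in obese libraries, with 0 lower and 1 higher (1 at an unadjusted p under 0.05). The 3 delta-cell markers summed to 2362 to 3860.4 TPM in weight-cycled and 2876 to 4581 TPM in obese libraries, and limma called 0 (0 at an unadjusted p under 0.05). The 8 acinar markers summed to 2287 to 5637 TPM in weight-cycled and 1904 to 3542 TPM in obese libraries, and limma called 0 of the 7 tested (0 at an unadjusted p under 0.05). The acinar regulator Ptf1a was below 0.1 TPM throughout. Weight-cycled replicate 1, with the most acinar transcripts, had the lowest Vamp8. Among the obese libraries, replicate 2 had both the highest acinar sum, at 3542 TPM, and the highest Vamp8, at 70.1 TPM. The 6 macrophage markers summed to 9.61 to 16.4 TPM in weight-cycled and 16.0 to 24.1 TPM in obese libraries, with 3 of 3 tested markers lower. The 5 endothelial markers summed to 19.2 to 41.1 TPM in weight-cycled and 32.6 to 55.1 TPM in obese libraries, with 2 of 5 lower. The 5 nerve and Schwann markers summed to 4.87 to 7.96 TPM in weight-cycled and 6.81 to 11.3 TPM in obese libraries, and limma called 0 of the 2 tested (1 at an unadjusted p under 0.05). Sox10, which defines Schwann cells, was below 0.1 TPM throughout. The 4 duct markers summed to 31.6 to 49.9997 TPM in weight-cycled and 34.7 to 44.0 TPM in obese libraries, with 1 of 2 tested lower. Both had an unadjusted p under 0.05, and the lower one was Krt7. Spp1 went the other way, at 16.3 to 32.2 TPM in weight-cycled and 13.8 to 19.1 TPM in obese libraries, and was not called. The 5 stromal markers summed to 1.23 to 2.71 TPM in weight-cycled and 1.89 to 2.73 TPM in obese libraries, too low for any to be tested. The part of these cells in the SNARE values was not tested.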

How the data were processed

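Per the labels' protocols, islets were released by collagenase and hand-picked, and libraries were made from poly-A RNA. The authors deposited TPM per gene; the submitters' processing notes name Salmon 1.5.2 and mm10. Which annotation they used is not given in the sources used here. Every library has the same TPM total, so abundant genes push the rest down or up, and depth cannot be known. Of the gene IDs, 99.8% matched a symbol, and Vamp7 was not analysed here. Values of single genes that enter the counts of the other list are in part not reported here.

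The members, lists and tests were chosen with earlier results of these data known. With limma 3.58.1 (R 4.3.3), genes averaging 1 TPM or more were fitted (trended empirical Bayes, no covariate, two-sided, Benjamini-Hochberg) on log2(TPM + 1), a scale that understates changes of low genes. The fit was also run on simulated data with noise independent between genes and no shift of whole libraries. That run cannot speak to the choice of scaling. Ratios of TPM were compared by exact permutation with Python 3.11.15 and scipy 1.17.1. Named were the 9 SNARE genes, of the other list every gene past the threshold and the 3 most abundant of each role, and the 3 genes nearest to Vamp2 and to Snap25. The alternatives changed the pseudocount (0.1, 5), dropped the filter or raised it to 5 TPM, or used median-of-ratios and quantile scaling, a loess correction for transcript length (span 0.5), the replicate number as a block, and leaving out each library. No count test was applied to TPM. Some alternatives without weight-cycled replicate 1 were chosen after seeing the data.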

Additional observations from a re-analysis of the deposited data

Results flagged for a closer look

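Single libraries far from the other 3 of their group stood out by the ratio test of Dixon in 2 of the 88 groups looked at, where chance gives 4.4. For Stx7, weight-cycled replicate 2 had 13.8 TPM and the other weight-cycled libraries 18.1 to 18.5 TPM. For the summed acinar markers, weight-cycled replicate 1 had 5637 TPM and the other weight-cycled libraries 2287 to 2600.1 TPM. None of the 9 SNARE genes or 7 ratios was among them.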

How the results depend on the processing

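The 4 SNARE genes called lower became 0 without the filter on low values and after median-of-ratios scaling, quantile scaling or removal of the length trend, and 0 to 6 when a library was left out. It was 0 without weight-cycled replicate 2, 3 or 4 or obese replicate 1, 2 or 3 (5 at an unadjusted p under 0.05 in each), and 6 without weight-cycled replicate 1. In those fits 0 SNARE genes were called higher. The pseudocounts, the filter at 5 TPM and the replicate block left the count within 1.5 times of 4. The other list's 10 lower genes became 0 without the filter and after median-of-ratios or quantile scaling, 5 with the filter at 5 TPM, 1 with the length trend removed, and 0 to 23 when a library was left out. Its 0 higher genes became 1 after quantile scaling and with the replicate block, and 0 to 1 when a library was left out. Over all genes, the 1946 lower became 0 without the filter, 1001 with the filter at 5 TPM (fewer genes tested), 46 after median-of-ratios scaling, 123 after quantile scaling, 124 with the length trend removed and 0 to 4390 when a library was left out, the 0 being the fit that lacks obese replicate 1 (2670 at an unadjusted p under 0.05). The 98 higher became 0 without the filter, 173 after quantile scaling, 149 with the replicate block and 0 to 270 when a library was left out. Without weight-cycled replicate 1, chosen after the data were seen, median-of-ratios scaling gave 2 SNARE genes lower and 2 higher, 7 of the other list lower and 8 higher, and 1444 of all genes lower and 1609 higher. Removal of the length trend gave 2 SNARE genes lower and 1 higher, 5 of the other list lower and 4 higher, and 1087 of all genes lower and 1031 higher. Apart from these choices, the cause was not tested.

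Vamp2, Nsf, Napa and Stx4a were below 0 under all 18 alternatives run for them and Stx3 under all 17. Snap25 came to -0.0047 with median-of-ratios scaling (limma adjusted p = 0.979), which gives no direction, and was below 0 in the others. Vamp3 turned to 0.1744 with scaling by median of ratios, 0.0854 by quantiles and 0.1352 with the length trend removed, and to 0.2207 and 0.1777 for the first and the last of these without weight-cycled replicate 1. Vamp8 ranged from -0.0265 to 0.1287 when a library was left out, below 0 without weight-cycled replicate 4. Of the log2 ratios, Stx3 over Stx1a and Stx4a over Stx1a turned to -0.0083 and -0.0655 with a pseudocount of 1, and Napa over Nsf to -0.0179 with quantile scaling. That of Stx1a over Snap25 came to -0.0120 with a pseudocount of 1 (exact permutation p = 0.943), which gives no direction, and was below 0 in the others. Those of Vamp2 over Snap25, Vamp3 over Vamp2 and Vamp8 over Vamp2 kept their direction under each alternative run.

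The replicate numbers are shared between groups, but nothing in the labels says that they pair libraries, and same-numbered libraries deviated with correlations of -0.28 to 0.23. With the replicate block 5 SNARE genes were lower, Stx3 joining (limma adjusted p = 0.0367), 13 genes of the other list were called, and 2754 of all genes were lower and 149 higher. Depth is unknown, so what it limits could not be set.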
